A study of Mus musculus with 12 samples.

Results

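The genes described here are the tumour necrosis factor (TNF) ligands, the TNF receptors, the TNF receptor-associated factors (TRAFs) and the genes named as induced by TNF. They are the gene probes whose name on the array starts with Tnfsf, Tnfrsf, Traf or Tnfaip and a digit, or is Tnf itself, and each gene is represented by its probe of highest mean intensity over all arrays. The rule found 54 genes, with 73 probes, of the 29742 genes on the array: 15 ligands, 24 receptors, 7 TRAFs, 6 TNF-induced genes and 2 genes that carry the name only through a partner, Traf3ip1 and Psmg2 (Tnfsf5ip1 on the array). All 54 were among the 29496 genes tested, and none was lost to the filter on dim or marked spots.

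TNF ligands are made as trimeric membrane proteins, and many are also released in soluble form. They bind receptors of the TNF receptor superfamily, some of which hold a death domain and can start apoptosis, as Fas does, while others recruit TRAF adaptors that lead to NF-kappaB and to the stress-activated kinases. In the mammary gland this family is best known for RANKL (Tnfsf11) and its receptor RANK (Tnfrsf11a), which mediate epithelial growth in response to progesterone, and in tumours many members are made by infiltrating immune cells.

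The tumours came from 6 strains of female mice that carry an activated neu (rat ErbB-2) transgene under the MMTV promoter, so that all groups, the controls included, share an ErbB-2 oncogene active in mammary and to some degree other epithelium. NDL25 is the parental MMTV/neu NDL2-5 strain. As background to the strain names, NYPD receptors lack the main tyrosine autophosphorylation sites of the cytoplasmic tail, and YB, YC, YD and YE receptors each have a single site restored, which is bound by the adaptor Grb2 in YB and by Shc in YD. The labels name 1 strain for each receptor, so the receptor and the transgenic line cannot be told apart. Mice had borne tumours for 6 weeks. From each strain 10 tumours gave 2 RNA pools, each of 5 tumours, of which 500 ng was amplified in a linear reaction, and each pool was hybridised against Universal Mouse Reference RNA on 2 arrays with exchanged dyes. Values are log2 of tumour over reference, averaged over the 2 arrays of a pool, and a strain mean has n = 2 pools; a value near 0 means a level like that of the reference, not absence of the transcript. In RNA from whole tumours, fewer cells of a type and less RNA per cell cannot be told apart.

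On the 24 arrays the tumour channel had a median intensity of 364.8 to 763.5, with a background of 39 to 64, and 97.28% to 98.86% of spots were well above background. Of the members' probes, 53 were well above background on all 24 arrays, that of Tnfsf9 on 23, and none was saturated. Erbb2 was above the reference in all pools on its brightest probe, at 1.64 in NDL25 pool 1, 1.85 in YB pool 1 and 3.42 to 4.19 elsewhere. A second Erbb2 probe did not show this gap, at 0.97 and 0.55 in NDL25 and 0.81 and 0.61 in YB, and the remaining probe read -0.01 to 0.37 in the 12 pools. The file headers place the arrays in 3 feature extraction sessions (image reading): NDL25, YB and YC pool 1 in session 2, YD and YE in session 1, YC pool 2 across both, and NYPD alone in session 3. Strain and session can therefore not be told apart in any comparison with NYPD, and YD and YE also differ from NDL25 in session. The luminal marker list, checked because the tissue is labelled as breast tumour, had mean log2 ratios of 1.81 to 2.76 over the 12 pools, and the T cell list -0.31 to -0.07. A list of 8 salivary gland genes stood at 3.54 and 3.89 in YB, against 0.38 to 0.7 in the other pools.

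The 250 bases before the start of transcription are shown for the 3 members that differed between strains, Traf1, Steap4 and Fas, and for Tnfaip3, which encodes the NF-kappaB inhibitor A20 and is a classical target of that pathway. They are from RefSeq on build GRCm38.p6, 5′ to 3′ along the gene's strand: chr2:34961773-34962022 on the minus strand, chr5:7960222-7960471 on the plus strand, chr19:34290409-34290658 on the plus strand and chr10:19015411-19015660 on the minus strand. Capitals mark matches, on either strand, to the NF-kappaB consensus or to the AP-1 motif TGANTCA.
Traf1: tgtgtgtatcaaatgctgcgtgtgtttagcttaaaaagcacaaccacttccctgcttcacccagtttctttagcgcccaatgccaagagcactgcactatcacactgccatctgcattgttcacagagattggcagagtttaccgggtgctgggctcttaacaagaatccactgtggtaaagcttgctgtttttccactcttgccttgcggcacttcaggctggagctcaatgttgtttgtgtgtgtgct
Steap4: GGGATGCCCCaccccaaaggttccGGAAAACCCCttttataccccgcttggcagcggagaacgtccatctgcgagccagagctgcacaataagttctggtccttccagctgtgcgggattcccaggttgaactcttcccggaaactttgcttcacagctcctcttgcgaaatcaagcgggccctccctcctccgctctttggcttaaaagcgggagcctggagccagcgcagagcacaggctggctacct
Fas: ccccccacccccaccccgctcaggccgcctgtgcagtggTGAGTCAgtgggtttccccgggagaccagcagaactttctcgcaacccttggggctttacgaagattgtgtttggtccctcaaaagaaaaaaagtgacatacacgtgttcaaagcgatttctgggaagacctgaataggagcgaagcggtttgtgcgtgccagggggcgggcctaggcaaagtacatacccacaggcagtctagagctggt
Tnfaip3: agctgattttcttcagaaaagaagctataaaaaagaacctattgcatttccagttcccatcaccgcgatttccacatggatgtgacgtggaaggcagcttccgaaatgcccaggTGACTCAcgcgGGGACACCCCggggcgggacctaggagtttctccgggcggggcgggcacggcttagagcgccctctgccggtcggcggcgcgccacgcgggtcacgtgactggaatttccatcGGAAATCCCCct
The Traf1 window held neither motif, the Steap4 window 2 NF-kappaB matches, the Fas window 1 AP-1 match, and the Tnfaip3 window 2 NF-kappaB matches and 1 AP-1 match. No match overlapped a match of the other motif. Over 47 windows of the 42 members with an entry, 5 (10.6%) held the NF-kappaB consensus and 8 (17%) the AP-1 motif, against 1281 (3.9%) and 2217 (6.75%) of all 32851 windows of that length. A match is a run of letters and not evidence of binding.

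The family varied slightly more between the 6 strains than the typical gene, by small amounts. The range of the 6 strain means had a median of 0.33 on the log2 scale over the members and 0.28 over all genes, it exceeded the latter in 36 members, and it was under 0.3 in 21. By role, the median range was 0.21 for ligands, 0.34 for receptors, 0.33 for TRAFs and 0.44 for TNF-induced genes. Relative to the reference, 12 members were higher in all 12 pools and 15 lower in all 12, counted on unrounded values; Tnfsf10 in NYPD pool 2 and Tnfrsf9 in YB pool 2 round to 0. The former were Tnfsf13, Tnfsf10, Fasl, Tnfsf4, Tnfrsf21, Tnfrsf1a, Tnfrsf11a, Cd27, Traf2, Traf4, Traf6 and Steap4. The latter were Tnfsf9, Tnfsf14, Tnfrsf13b, Relt, Tnfrsf12a, Tnfrsf1b, Tnfrsf17, Tnfrsf25, Tnfrsf9, Tnfrsf23, Traf5, Traf7, Tnfaip2, Tnfaip3 and Traf3ip1. These lists rest on the brightest probes. A further probe of Tnfrsf1b, Tnfrsf13b, Tnfrsf9 and Steap4, among others, lay on both sides of the reference. The matching counts over all genes were not taken, so the counts are descriptions only.

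**Figure D1:**
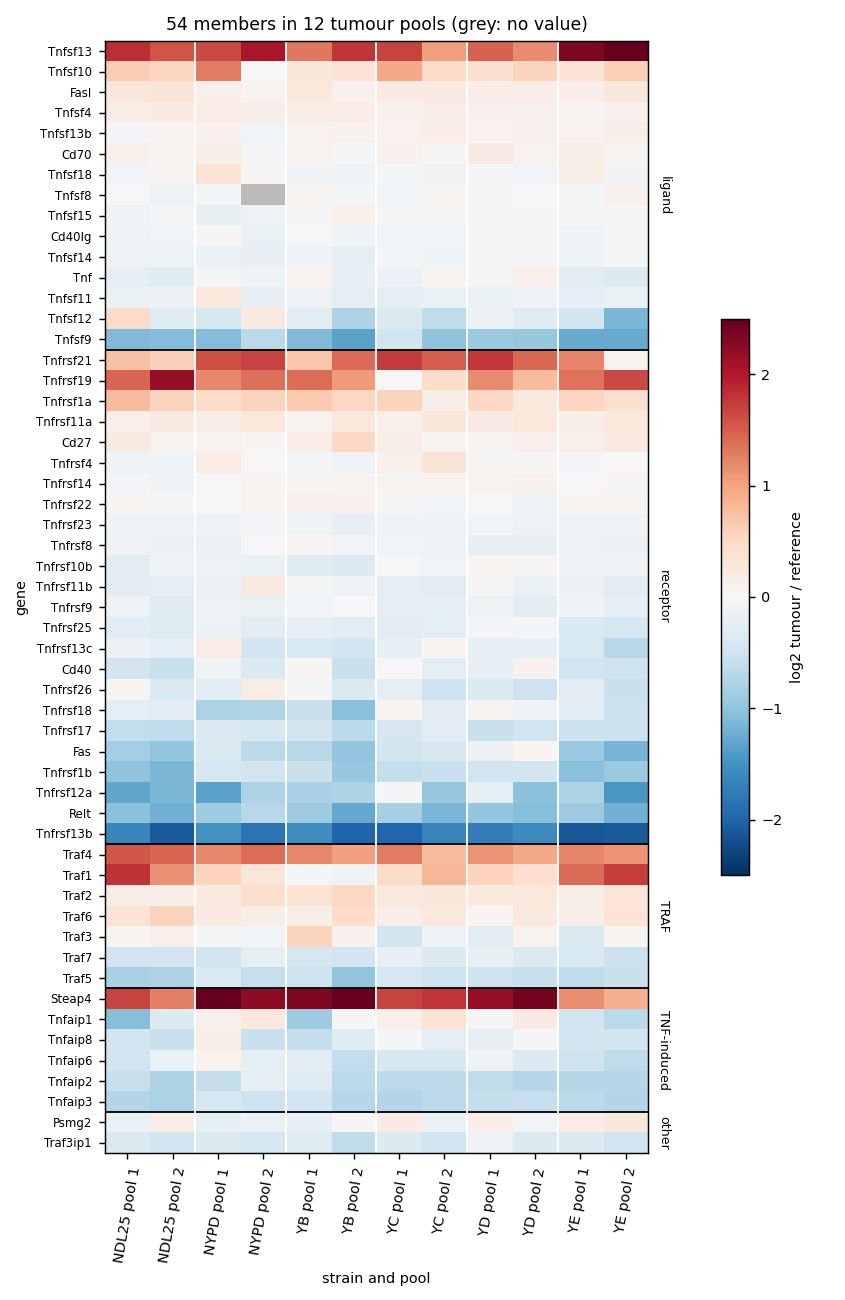
Log2 ratio of tumour over reference (colour, blue below and red above the reference, with values past the ends of the scale, up to 2.8, shown in the end colour) of the 54 members (vertical axis, grouped by role and ordered by mean) in the 12 tumour pools (horizontal axis). Most bands keep 1 colour across strains, such as Tnfsf13 and Traf4 in red and Tnfrsf13b in blue, while Traf1 fades in YB and Steap4 in YE; Tnfsf8 has no value in NYPD pool 2.

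In the F test of limma over the 6 strains, with Benjamini-Hochberg adjustment over all genes, 3 of the 54 members passed an adjusted p of 0.05 (5.56%), against 3.14% of all genes tested. They were Traf1 (adjusted p = 0.0344), Steap4 (0.0359) and Fas (0.0442). Of the 22 alternatives tried, these calls were lost in 14 for Traf1, in 13 for Steap4 and in 16 for Fas, and with session as a block the adjusted p was 0.145, 0.137 and 0.153. At an unadjusted p under 0.05 there were 11 members (20.4%), against 21.2% of all genes, so the share of varying genes in the family was near that of the array. NDL25 had the lowest of the 6 strain means in 17 members (31.5%) and in 13.6% of all genes, and YE in 12 members (22.2%) and 16.6% of all genes. YD had the highest mean in 14 members (25.9%) and 11.5% of all genes. These shares are descriptions and were not tested.

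**Figure D2:**
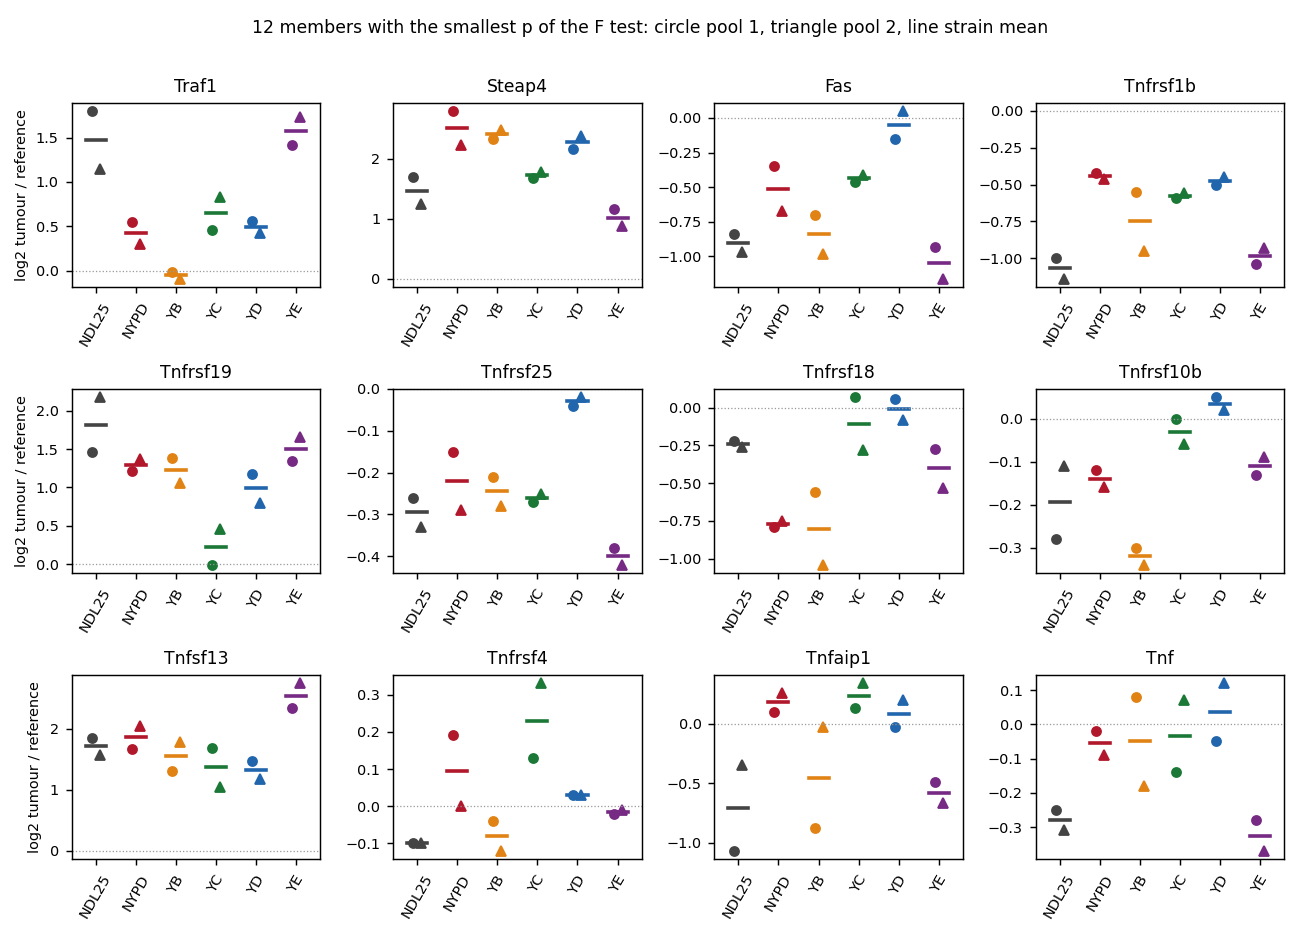
Log2 ratio of tumour over reference (vertical axes, scaled for each gene) in the 6 strains (horizontal axes) for the 12 members with the smallest p of the F test; a circle is pool 1, a triangle pool 2 and a line the mean of the strain. Traf1 is highest in NDL25 and YE and lowest in YB, Steap4 is lowest in YE, and Fas is highest in YD.

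Among the ligands none passed the F test. Tnfsf13 (APRIL), a survival factor for B and plasma cells, had the widest range of strain means among them, 1.21. It had log2 ratios of 2.34 and 2.74 in YE, 1.85 and 1.57 in NDL25, 1.66 and 2.05 in NYPD, 1.31 and 1.78 in YB, 1.69 and 1.04 in YC and 1.47 and 1.18 in YD. Both YE pools lay above the 10 other pools. The difference of YE from NDL25 was 0.83 ± 0.27 (SE, n = 2 pools per strain) and did not pass limma (adjusted p = 0.517), and the F test gave an adjusted p of 0.149.

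Tnf, the founding ligand and a product chiefly of activated macrophages, was near or below the reference. It stood at -0.25 and -0.31 in NDL25 and -0.28 and -0.37 in YE, against -0.02 and -0.09 in NYPD, 0.08 and -0.18 in YB, -0.14 and 0.07 in YC and -0.05 and 0.12 in YD. The NDL25 and YE pools were the 4 lowest and did not overlap with the others, but the strain means spanned only 0.36 and the F test did not pass (limma adjusted p = 0.247). The mean of the macrophage list ran from 0.4 to 0.86 in these 4 pools and from 0.84 to 1.79 in the other 8, and its part in the result was not tested.

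The other ligands were flat or uneven between the pools of a strain. Tnfsf11 (RANKL) was -0.23 to -0.09 in 11 pools and 0.27 in NYPD pool 1, where its second probe also read highest, at 0.54. Tnfsf10 (TRAIL), which triggers apoptosis through death receptors, was 1.3 in NYPD pool 1 and 0 in NYPD pool 2, a gap wider than the 0.39 range of its strain means. Tnfsf12 (TWEAK) was 0.48 and -0.3 in NDL25 and -0.46 and -1.15 in YE, and the difference of -0.9 ± 0.35 did not pass limma (adjusted p = 0.611). Tnfsf9 (4-1BB ligand), a T cell costimulator, was -1.34 to -0.5 in the 12 pools. Fasl, the ligand of Fas, was 0.07 to 0.33, Tnfsf15 and Tnfsf18 had ranges of strain means of 0.21 and 0.3, and Cd40lg, Cd70, Tnfsf4, Tnfsf8, Tnfsf13b and Tnfsf14 of 0.06 to 0.14. A second, dimmer Tnfsf13b probe, with r = 0.01 to the first, had a wider range, 0.49. Its strain means ran from -0.88 in YE to -0.39 in YB and YD, with -0.09 and -0.7 in the YB pools.

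Among the receptors Fas, filed as Tnfrsf6 and known as the prototype death receptor, was the single one to pass the F test. Its log2 ratios were -0.15 and 0.05 in YD, -0.46 and -0.41 in YC, -0.35 and -0.67 in NYPD, -0.7 and -0.98 in YB, -0.84 and -0.97 in NDL25 and -0.93 and -1.16 in YE. The YD pools lay above all others, and those of NDL25, YB and YE overlapped at the low end. Of the contrasts of Fas the smallest adjusted p was that of YD against NDL25, a difference of 0.85 ± 0.14 or 1.81-fold on this scale, which did not pass limma (adjusted p = 0.0998). The F test's call was lost with median centring in place of loess (adjusted p = 0.0598), with all probes tested (0.0504) and with session as a block (0.153). Leaving out 1 pool gave an adjusted p of 0.0377 to 0.135.

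Tnfrsf1b, the TNF receptor found chiefly on immune and endothelial cells, had log2 ratios of -1 and -1.14 in NDL25 and -1.04 and -0.93 in YE, against -0.42 and -0.46 in NYPD, -0.59 and -0.56 in YC, -0.5 and -0.45 in YD and -0.55 and -0.95 in YB. NDL25 and YE were low, and YB pool 2 lay among them. NYPD exceeded NDL25 by 0.63 ± 0.12 (limma adjusted p = 0.0637) and YE lay below NYPD by a difference of -0.54 ± 0.12 (0.0695), neither of which passed. The F test of Tnfrsf1b had an adjusted p of 0.0705, and of 0.0131 and 0.0175 without YB pool 1 and without YB pool 2. The identity of this probe is uncertain: the array names it Tnfrsf1b, but its description in the files names the type I receptor, and the second Tnfrsf1b probe was flat, with strain means of -0.08 to 0 and r = -0.43 with the first over the 12 pools.

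Tnfrsf1a, the broadly expressed death domain receptor of TNF, was 0.15 to 0.79 in the 12 pools (F test of limma, adjusted p = 0.623). Tnfrsf10b, the mouse receptor of TRAIL, was lowest in YB, at -0.3 and -0.34, and highest in YD, at 0.05 and 0.02. NDL25 pool 1, at -0.28, lay next to the YB pools, and the F test did not pass (limma adjusted p = 0.105). A second Tnfrsf10b probe, with r = -0.02 to the first, had its highest strain mean in YB, at -0.01, and the dimmest probe was flat, with a range of 0.08. Tnfrsf25, a death receptor of T cells, was -0.04 and -0.02 in YD, -0.38 and -0.42 in YE and -0.33 to -0.15 in the other 8 pools. YD and YE thus lay outside the other strains on opposite sides on this probe, in a range of 0.37 with an F test adjusted p of 0.0893. A second, dimmer Tnfrsf25 probe, with r = 0.25 to the first, did not show this. It read 0.02 and 0 in YD and 0.01 and -0.02 in YE, and its lowest strain mean was in NYPD, at -0.13. Tnfrsf21 (death receptor 6) had a wide range, 0.99, and a wide spread: 1.22 and 0.08 in the YE pools, 0.7 and 1.42 in YB, 0.73 and 0.6 in NDL25, and 1.43 to 1.76 in NYPD, YC and YD. Its second probe followed it with r = 0.99 and read 1.03 and -0.16 in the YE pools, and the F test did not pass (limma adjusted p = 0.259).

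Tnfrsf19 (TROY), a receptor linked to Wnt signalling and to stem cells of several epithelia, had a range of 1.59, next to that of Traf1 in width. It stood at 1.46 and 2.18 in NDL25, 1.35 and 1.66 in YE, 1.21 and 1.37 in NYPD, 1.39 and 1.06 in YB, 1.18 and 0.8 in YD, and -0.01 and 0.46 in YC. Both YC pools lay below the 10 others. YC differed from NDL25 by -1.59 ± 0.27, or 3.02-fold, with a limma adjusted p of 0.0907, and from NYPD by -1.06 ± 0.27 (0.229). In YC against NDL25 only 0.00678% of all genes passed. A second, dimmer Tnfrsf19 probe was flat, between -0.16 and 0.04.

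Costimulatory receptors of T cells were low or near the reference. Tnfrsf18 (GITR) was -0.79 and -0.75 in NYPD and -0.56 and -1.04 in YB, -0.27 and -0.53 in YE, -0.22 and -0.26 in NDL25, 0.07 and -0.28 in YC and 0.06 and -0.08 in YD. NYPD and YB were the lowest strains and did not overlap with the 4 others. YD exceeded NYPD by 0.76 ± 0.17 (limma adjusted p = 0.172), and the F test gave 0.0976. Its neighbour on chromosome 4, Tnfrsf4 (OX40), behaved otherwise, with 0.13 and 0.33 in YC, 0.19 and 0 in NYPD and -0.12 to 0.03 in the remaining 8 pools (F test adjusted p = 0.206). Over the 12 pools the pair had r = 0.18, a description over pools that share arrays and reference. Cd27, Tnfrsf9, Tnfrsf8 and Tnfrsf14 had ranges of 0.16 to 0.29. The means of the 9 measured T cell markers lay between -0.31 and -0.07 in all pools, and none of these markers passed the F test of limma, with 2 at an unadjusted p under 0.05.

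Receptors of B and plasma cells were below the reference in most pools on their brightest probes. Tnfrsf13b (TACI) was -2.13 to -1.52 in the 12 pools, Tnfrsf17 (BCMA) -0.68 to -0.29 and Tnfrsf13c (BAFF receptor) -0.7 to 0.19, and the list of 10 B and plasma cell markers stood at -1.76 to -1.4. A second Tnfrsf13b probe lay near the reference, at -0.11 to 0.17, so the level of this receptor relative to the reference differs between its probes. Cd40, the receptor of Cd40lg on B cells, macrophages and dendritic cells, was -0.46 and -0.56 in NDL25 and -0.49 and -0.51 in YE, and -0.56 to 0.11 in the other strains. Tnfrsf12a, the receptor of TWEAK, was -0.05 and -0.95 in YC and -0.25 and -1.02 in YD, so the pools of 1 strain differed by more than the 0.73 range of the strain means. Tnfrsf11a (RANK) was flat at 0.09 to 0.28, and its decoy partner Tnfrsf11b (osteoprotegerin) was -0.28 to 0.24. Of the remaining receptors, Relt was -1.28 to -0.7, Tnfrsf26 -0.55 to 0.19, Tnfrsf22 -0.09 to 0.11 and Tnfrsf23 -0.2 to -0.05.

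Among the TRAFs Traf1 stood out. Traf1 is an adaptor that lacks the RING domain of its relatives, binds Traf2 and is itself induced by NF-kappaB. Its log2 ratios were 1.8 and 1.15 in NDL25, 1.42 and 1.73 in YE, 0.46 and 0.83 in YC, 0.56 and 0.42 in YD, 0.55 and 0.3 in NYPD and -0.02 and -0.09 in YB. The 4 pools of NDL25 and YE lay above all others, and both YB pools below all others. Its strain means spanned 1.63, the widest range of the family.

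Traf1 was the single member that passed in YB against NDL25. It was lower in YB by a log2 difference of -1.53 ± 0.22, or 2.89-fold (limma adjusted p = 0.0143), in a comparison in which 3.87% of all genes passed and 0.783% were lower. Against the same NDL25 pools, the differences of the other strains were -1.06 for NYPD (adjusted p = 0.0757), -0.83 for YC (0.219), -0.99 for YD (0.181) and 0.1 for YE (0.966). These 5 differences share the NDL25 pools. Without NDL25 pool 1 the difference of YB was -1.2, and without NDL25 pool 2 it was -1.86. NDL25 pool 1 and YB pool 1 were also left out together, after the data had been seen, because the brightest Erbb2 probe read lower there. The difference was then -1.24. Traf1 did not pass in either fit without NDL25 pool 1, and it passed without NDL25 pool 2. All of these fits left 1 NDL25 pool, and in all of them fewer genes passed over the whole array. NDL25 and YB were read in the same session. With session as a block the limma adjusted p was 0.049, and with only the pools of that session it was 0.212. Over all genes the number that passed also fell, from 1141 to 375 and to 12. The salivary list, of which 6 of 8 genes passed as higher, was at 0.48 and 0.58 in NDL25 and at 3.54 and 3.89 in YB. In YC, YD, YE and NYPD the list was at 0.38 to 0.7. Among these strains Traf1 was at 1.42 and 1.73 in YE. In YC, YD and NYPD it was below the NDL25 pools, by differences that did not pass. The part of the salivary list in the Traf1 result was not tested.

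Against NYPD, Traf1 was higher in YE by 1.15 ± 0.22 with a limma adjusted p of 0.0513, just outside the threshold. It passed with median centring (1.01, adjusted p = 0.0473), with the filter on all 24 arrays (0.0499), and with NDL25 pool 1, NDL25 pool 2, or both NDL25 pool 1 and YB pool 1 left out (0.0465, 0.0465 and 0.0458).

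The other 6 TRAFs passed neither the F test nor a contrast of all 12 pools, and Traf5 passed in 1 contrast with YB pool 1 left out, given with that comparison. Traf4, first described in breast carcinoma, was 0.79 to 1.55 in all pools, with NDL25 highest at 1.55 and 1.45 (F test of limma, adjusted p = 0.332). A second, dimmer Traf4 probe, with r = 0.26 to the first, ranked the strains otherwise. Its strain means were highest in NDL25 and YE, at 1.22 and 1.2, and lowest in NYPD, at 0.59. Traf2, the central adaptor of NF-kappaB signalling from most of these receptors, was 0.14 to 0.52, and its difference of 0.29 ± 0.08 between YB and NDL25 did not pass limma (adjusted p = 0.122). Traf6, which also serves Toll-like and interleukin-1 receptors, was 0.04 to 0.58. Traf3, an inhibitor of non-canonical NF-kappaB, was 0.56 and 0.11 in YB and -0.45 and -0.1 in YC. Traf5 was -0.98 to -0.39 and Traf7 -0.54 to -0.18 in the 12 pools.

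Among the TNF-induced genes Steap4, filed as Tnfaip9, was above the reference in all pools, with a mean of 1.9. Steap4 is a metalloreductase known from adipose tissue and from inflamed tissues. Its log2 ratios were 2.8 and 2.23 in NYPD, 2.34 and 2.48 in YB, 2.17 and 2.39 in YD, 1.68 and 1.78 in YC, 1.69 and 1.25 in NDL25 and 1.16 and 0.88 in YE. NYPD, YB and YD overlapped at the top, YC and NDL25 in the middle, and both YE pools were the lowest of the 12.

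Steap4 was the single member that passed in YE against NYPD, where 1.82% of all genes passed and 1.01% were lower. It was lower in YE by a log2 difference of -1.5 ± 0.21, or 2.82-fold (limma adjusted p = 0.0252). In the ratios deposited by the authors the same difference was -2.84 (0.0499). Without YE pool 1 it was -1.64 and without YE pool 2 -1.36. Neither passed, in fits that left 1 YE pool and in which far fewer genes passed over the whole array. Against NYPD the other strains gave -0.11 for YB (0.835), -0.24 for YD (0.732) and -0.78 for YC (0.251), all sharing the NYPD pools. Against NDL25, Steap4 was 0.94 ± 0.21 higher in YB (adjusted p = 0.057) and 1.05 ± 0.21 higher in NYPD (0.0706), and neither difference passed. The YB difference passed with median centring (1.05, adjusted p = 0.0489) and without either NYPD pool (0.0399 and 0.0396).

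A second, dimmer Steap4 probe ranked YE lowest and NYPD highest as well, at strain means of 0.03 and 0.33, but its range was only 0.31. The 2 probes had r = 0.64 over the 12 pools. Beside Steap4, the mean of the macrophage list was 1.37 and 1.45 in NYPD and 0.75 and 0.4 in YE, with 2 of its 9 genes, Cd14 and Lyz2, passing as lower. The fibroblast list was at -0.16 and -0.66 in NYPD and -1.36 and -1.92 in YE, with 0 of 8 passing limma and 7 of 8 at an unadjusted p under 0.05. The adipocyte list was at 1.33 and 1.21 in NYPD and 1.46 and 1.58 in YE. The luminal list was at 2.65 and 2.76 in NYPD and 1.89 and 1.81 in YE, with 2 of 8 genes, Krt19 and Wap, passing as lower. The median difference of its genes was only -0.2, and Cdh1 (0.17) and Elf5 (0.3) were higher in YE, without passing. The basal list was at 0.35 and 1.1 in NYPD and 0.09 and -0.04 in YE. Of its 8 genes 1 passed as lower, Trp63 (-1.57, limma adjusted p = 0.0174). The part of these cells in the Steap4 result was not tested.

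Tnfaip3 (A20) and Tnfaip2 were below the reference in all pools, at -0.8 to -0.44 and -0.77 to -0.23. Tnfaip3 was 0.29 ± 0.08 higher in NYPD than in NDL25, which did not pass limma (adjusted p = 0.142). Tnfaip1, an adaptor of a ubiquitin ligase, had a wide range, 0.95, that came with a wide spread. It was -1.07 and -0.35 in NDL25, -0.88 and -0.03 in YB and -0.49 and -0.67 in YE, against -0.03 to 0.34 in NYPD, YC and YD. The pools numbered 1 of NDL25 and YB were both low, and the F test did not pass (limma adjusted p = 0.23). Tnfaip6 (TSG-6), a hyaluronan-binding protein of inflamed matrix, was -0.64 to 0.08, and Tnfaip8 -0.6 to 0.16. Of the 2 genes in the list by name alone, Traf3ip1, a component of cilia, was -0.63 to -0.11, and Psmg2, a chaperone of proteasome assembly, -0.22 to 0.29.

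**Figure D3:**
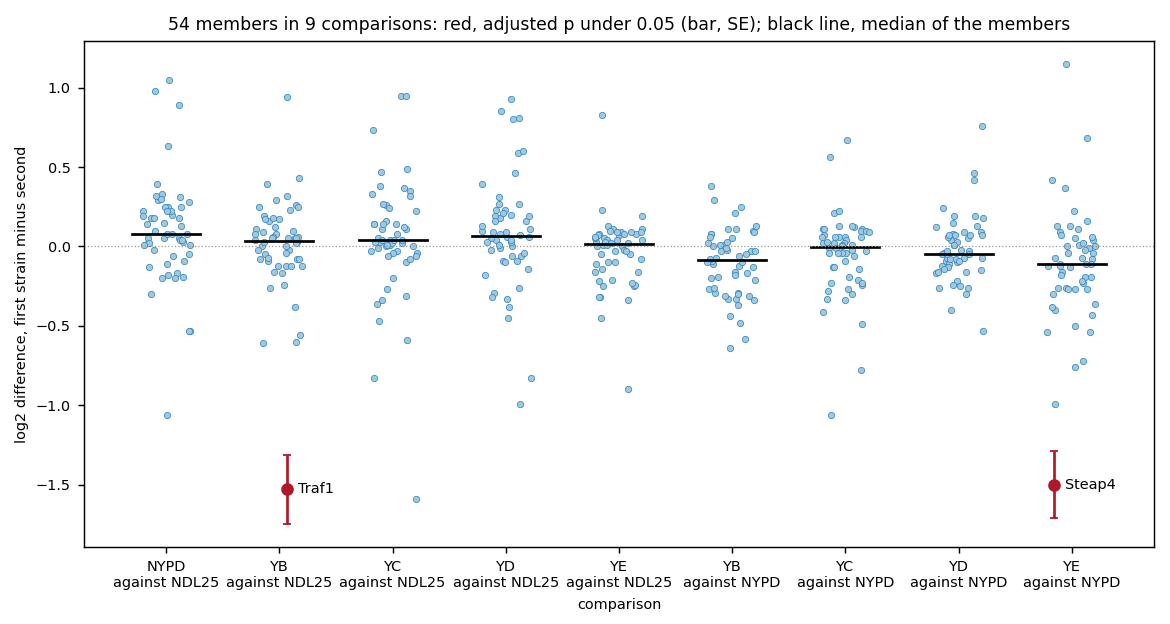
Log2 difference between strains, first minus second (vertical axis), of the 54 members (points) in the 9 comparisons (horizontal axis); the black line is the median of the members, and red points with a bar (SE) passed an adjusted p of 0.05. Traf1 in YB against NDL25, at -1.53, and Steap4 in YE against NYPD, at -1.5, are the 2 that passed, and the medians lie between -0.11 and 0.08.

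In the other 7 comparisons no member passed limma at an adjusted p of 0.05. For NYPD against NDL25 the share of all genes that passed was 0.973%, and 12 members had an unadjusted p under 0.05, against 15.6% of all genes. For YC against NDL25, 0.00678% of all genes passed, and 11 members and 11.3% of all genes had an unadjusted p under 0.05. For YD against NDL25 it was 0.00678%, with 13 members and 10.4% of all genes, and for YE against NDL25 0%, with 2 members and 7.52%. For YB against NYPD it was 5.04%, with 7 members and 20% of all genes at that unadjusted p. For YC against NYPD it was 0.017%, with 6 members and 10.2%, and for YD against NYPD 0.0102%, with 5 members and 10.8%. In the comparisons with a member that passed, 7 members and 17.2% of all genes had an unadjusted p under 0.05 in YB against NDL25, and 13 members and 19.3% in YE against NYPD. As shares of the 54 members these counts were 22.2% for NYPD, 13% for YB, 20.4% for YC, 24.1% for YD and 3.7% for YE against NDL25, and 13%, 11.1%, 9.26% and 24.1% for YB, YC, YD and YE against NYPD. YB against NYPD thus had the largest share of genes that passed, and no member among them. Traf5, Tnfrsf1b, Cd27 and Tnfsf15 passed there only in fits that left 1 YB pool. Without YB pool 1 their differences were -0.5, -0.51, 0.46 and 0.29, and more genes passed over the whole array as well. The YE and NDL25 tumours gave 2 members at an unadjusted p under 0.05, Tnfsf13 and Tnfsf12.

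As a group the members shifted little. Against NDL25 their median log2 difference was 0.08 in NYPD, 0.04 in YB, 0.04 in YC, 0.06 in YD and 0.02 in YE, while the median over all genes was -0.01 in the first 3 and 0 in the last 2. Against NYPD it was -0.08 in YB, 0 in YC, -0.05 in YD and -0.11 in YE, with medians over all genes of 0 to 0.01. In NYPD against NDL25, 39 of 54 members lay above 0, and in YE against NYPD 36 lay below, 2 counts that share the NYPD pools. Without YB pool 1 the median of YB against NDL25 was -0.02 for the members and -0.03 for all genes, and that of YB against NYPD was -0.15 and -0.02. The median of YB against NYPD was -0.01 without YB pool 2 and -0.03 without NYPD pool 1, and that of NYPD against NDL25 was 0.11 and 0.04 without NDL25 pool 1 and NDL25 pool 2.

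For 16 of the 54 members the array held further probes, 19 in all. Of these, 5 had r above 0.5 with the brightest probe over the 12 pools, 8 had r of 0 to 0.5 and 6 were negative. Traf1 and Fas had 1 probe each, so their results rest on a single sequence. Tnfsf11 and Psmg2 had second probes with r of 0.92 and 0.93. The dimmest Tnfrsf9 probe read -2.66 to -1.36 where the brightest read -0.32 to 0, and a second Tnfsf13b probe read -0.91 to -0.09 where the brightest read -0.06 to 0.16.

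**Figure D4:**
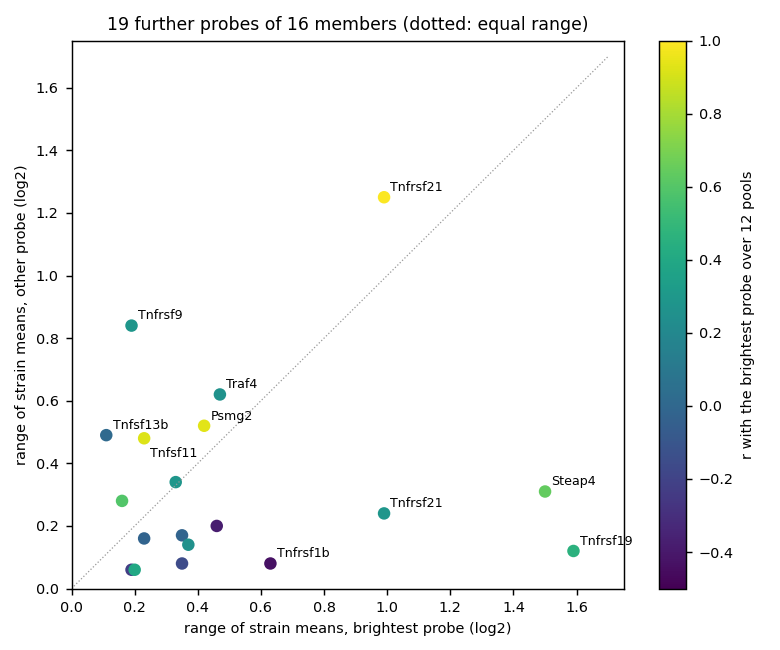
Range of the 6 strain means, in log2, of the brightest probe (horizontal axis) and of each of 19 further probes (vertical axis) of 16 members, coloured by r between the probes over 12 pools. Tnfrsf21 has 1 further probe near the dotted line of equal range, while those of Tnfrsf19, Steap4 and Tnfrsf1b lie far below it, at 0.12, 0.31 and 0.08.

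Genes that act with the family were read from 4 lists. Of 7 further ligands and receptors that go under other names, such as the lymphotoxins, none passed the F test. Ngfr, the p75 neurotrophin receptor (F test adjusted p = 0.11), passed in 2 contrasts. It was 0.33 ± 0.07 higher in YB than in NDL25 (limma adjusted p = 0.0414) and 0.32 ± 0.07 higher than in NYPD (0.0386). In these comparisons 3.87% and 5.04% of all genes passed. The log2 ratios of Ngfr were 0.35 and 0.55 in YB and 0.11 to 0.25 in the 10 other pools, without overlap. Lta (lymphotoxin alpha) was 0.65 and 0.32 in NDL25 and -0.2 to 0.17 elsewhere, and Ltbr, the lymphotoxin beta receptor, was 0.08 to 0.85, with F tests of limma that did not pass (adjusted p = 0.234 and 0.288), as that of Eda, at -0.51 to 0.03, did not (0.493). Of 17 death domain adaptors and effectors of cell death, 1 passed the F test. This was Cradd (RAIDD), an adaptor of caspase-2, with 0.71 and 0.66 in NYPD and 1.13 to 1.66 in the other pools. Cradd was lower in NYPD than in NDL25 (-0.71 ± 0.08, adjusted p = 0.0238), and higher in YB (0.5, 0.019) and YE (0.97, 0.01) than in NYPD, all of which share the NYPD pools and their session. Birc3 (cIAP2), a ubiquitin ligase bound to Traf2, was -0.69 and -0.73 in NDL25 and -0.87 and -0.92 in YE, against -0.61 to -0.03 in the 8 other pools, and did not pass the F test of limma (adjusted p = 0.134). Casp8, the caspase that death receptors activate, was -0.76 to 0.01 (0.192), and Diablo, which relieves the inhibition of caspases, was 0.08 to 0.51 (0.208).

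Of 24 NF-kappaB subunits, inhibitors and kinases, none passed the F test or any of the 9 contrasts of limma, and 5 had an unadjusted p under 0.05 in the F test, against 21.2% of all genes. Their median difference was 0.11 in NYPD and 0.1 in YB against NDL25, and -0.23 in YE against NYPD. Relb, a subunit of the non-canonical branch, was -1.06 and -1.37 in NDL25, -0.99 and -1.13 in YE and -0.97 to -0.47 in the other pools (F test of limma, adjusted p = 0.152). Map3k14 (NIK), the kinase of that branch, was -1.2 and -1.49 in NDL25, -1.32 and -1.49 in YE and -0.99 to -0.23 in the other pools (0.157). Nfkbia, the main inhibitor of NF-kappaB, was 0.44 and -0.16 in YB and -0.8 to -0.32 in the other pools (0.197). Nfkb1 was -1.21 and -1.45 in YE, -0.45 and -0.71 in NYPD and -1.08 to -0.67 in the other pools (0.214). Of 24 target genes of NF-kappaB, 11 had an unadjusted p under 0.05 in the F test, against 21.2% of all genes, and 1 passed, against 3.14%. It was Ccl20, a chemokine of mucosal epithelia. Ccl20 had log2 ratios of 3.49 and 1.89 in YB and -0.34 to 0.09 in the 10 other pools. It was 2.87 ± 0.42 higher in YB than in NDL25 (limma adjusted p = 0.0142) and 2.61 ± 0.42 higher than in NYPD (0.0169). Icam1, an adhesion molecule for leukocytes, was 0.1 and -0.52 in YB and -0.99 and -0.98 in NDL25, a difference of 0.77 ± 0.17 (0.0488), while NYPD, at -0.4 and -0.53, overlapped with YB. Il1b, the inflammatory cytokine, was 1.86 and 1.23 in YB, 1.52 and 1.19 in NYPD and -0.09 to 1.47 in the other pools, and Saa3, an acute phase protein, was -0.54 and -0.67 in NYPD and -3.52 to -1.82 elsewhere; neither passed the F test of limma (adjusted p = 0.104 and 0.0917). Beside the YB differences, the salivary list was high as given above, and the macrophage list was at 1.79 and 1.29 in YB and 0.86 and 0.83 in NDL25. In that comparison 1 of 9 macrophage genes passed, Cd14 (2.26 higher, limma adjusted p = 0.00688), and 1 of 6 dendritic cell genes, Ccr7 (0.45 higher, 0.0258). The part of these cells was not tested.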

How the data were processed

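Each of 12 tumour pools was measured on 2 Agilent 2-colour arrays with the dyes exchanged (24 arrays, Feature Extraction A.7.5.1 per the file headers). The deposited scanner files hold mean and background intensity per spot and colour, in linear units per the file headers. A table of log ratios, 1 for each pool and probe, was deposited as well. For it the submitters' processing notes list limma, RMA and R 2.3.0, and the exact normalization and log base are not given in the sources used here. Over the 10294 brightest probes the spread of these deposited values was 0.878 to 1.18 times that of log2 ratios of Agilent's processed signals, so they were read as log2. The labels give either dye for both channels, so the tumour's dye was read on each array from 10 luminal probes. Once turned, Lalba was above the reference on all arrays, the arrays of a pair had r of at most -0.891 before turning, and r with the deposited ratios was at least 0.955.

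Intensities were corrected with normexp (offset 50) and normalized by loess in limma 3.58.1 (R 4.3.3), marked spots were left out, and the pair was averaged. Probes had to be well above background on at least 4 arrays; 242 genes were left out as dim and 4 for marked spots. Tnfsf8 has no value in NYPD pool 2, and its NYPD mean rests on 1 pool. lmFit and eBayes fitted 1 mean per strain (6 residual and 1.76 prior degrees of freedom), with Benjamini-Hochberg adjustment over 29496 genes; the median SE of a difference was 0.11. Fold changes are on the offset scale, which understates changes of dim genes. The pools are biological repeats of pooled tumours, so p-values measure the spread between pools, not between mice, and n = 2 limits the precision.

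Symbols were updated through RefSeq, 51 by accession, 2 by synonym and 1 by symbol. Described in full were members that passed a test, the 12 with the smallest p of the F test and the 5 with the widest range of strain means; from each list, up to 4 with the smallest p of the F test. The members and lists were chosen with earlier results of these data known. Pool numbers were not taken as pairing: over 15 pairs of strains the correlation of same-numbered pools' deviations was -0.17 to 0.72, with 7 over 0.1. Alternatives were Agilent's processed signals, median centring, the deposited ratios, other filters, all probes, blocks for pool number and session, 1 session alone and each pool left out.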

Additional observations from a re-analysis of the deposited data

How the results depend on the processing

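The count of members that passed the F test, 3, changed to 1 with the authors' deposited ratios (Traf1), 0 with session as a block, 0 with only the pools of the second session, and 1 (Tnfrsf1b) without NDL25 pool 1 and YB pool 1 together, an alternative chosen after seeing the data. Leaving out each pool in turn gave 0 to 4. For YB against NDL25 the count of 1 became 2 with median centring, 0 with only the second session, 0 with those 2 pools left out together, and 0 to 2 with each pool left out. For YE against NYPD the count of 1 became 3 with median centring, 2 with the filter on all 24 arrays, 3 with the 2 pools left out together, and 0 to 2 with each pool left out. Counts of 0 became 0 to 1 for NYPD against NDL25 and 0 to 4 for YB against NYPD with each pool left out, and 2 for YB against NYPD with the 2 pools left out together. Of the alternatives that could be fitted, Traf1 in YB against NDL25 passed in 19 and not in 3, and Steap4 in YE against NYPD in 18 and not in 2. The F test calls held in 8 alternatives for Traf1, 9 for Steap4 and 6 for Fas, and were lost in 14, 13 and 16. No called difference changed its direction. Over all genes 1141 passed in YB against NDL25, against 375 with session as a block and 12 with only the second session.

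With pool number as a replicate block the counts were 3, 1 and 1, and the same genes passed: Traf1 in YB against NDL25 at an adjusted p of 0.0228 and Steap4 in YE against NYPD at 0.0278. The fits with a session term exclude NYPD, place YC pool 2 in session 1 by its first array, and estimate session only from how the YC pools differ. The fit of the second session alone holds NDL25, YB and YC pool 1, so its F test does not cover YD, YE or NYPD. Where 1 pool of a strain is left, that pool is assumed to vary like the others. The causes of these changes were not tested.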
